A study of Homo sapiens with 35 samples.

Results

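The genes described here are 40 genes of DNA replication and S phase. They were taken by exact match of the gene name in both deposited count tables, which list the same 59428 genes. The list was drawn up with earlier results of these data known, and its rule sets no threshold on a measured value. All 40 were found, and all 40 passed the filter on low counts in every line and treatment. By role they comprise 4 origin licensing genes (ORC1, ORC6, CDC6, CDT1), the 6 subunits of the MCM helicase (MCM2 to MCM7) and 6 genes that start the helicase (MCM10, CDC45, GINS1, GINS2, GINS3, GINS4). Another 4 encode polymerase alpha and its primase (POLA1, POLA2, PRIM1, PRIM2), 4 encode subunits of polymerases epsilon and delta (POLE, POLE2, POLD1, POLD3), and 5 encode the sliding clamp PCNA and its loader (RFC2, RFC3, RFC4, RFC5). The rest join lagging-strand fragments (FEN1, LIG1), supply nucleotides (RRM1, RRM2, TYMS, TK1), assemble chromatin behind the fork (CHAF1A, CHAF1B) or drive entry into S phase (CCNE1, CCNE2, E2F1).

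In G1 the origin recognition complex, with CDC6 and CDT1, loads the MCM helicase onto DNA, and in S phase CDC45 and the GINS complex turn it into the moving replicative helicase. Most of these genes are transcribed in late G1 and S phase under E2F factors, which the RB protein holds back until cyclin-dependent kinases phosphorylate it. Their RNA is therefore abundant in dividing cells, such as leukaemia cell lines in culture, and low in cells that have left the cycle.

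RNA with poly(A) tails was sequenced from 4 human acute myeloid leukaemia lines, U937, THP-1, MOLM-13 and OCI-AML-3. Libraries labelled DKO are from cells given guides against both SUV39H1 and SUV39H2, the paralogous histone H3 lysine 9 methyltransferases. Libraries labelled SKO are from cells given a SUV39H1 guide, and libraries labelled sgControl from cells given a control guide. There are 3 libraries each of TPA-treated U937 DKO, SKO and sgControl cells, of untreated U937 DKO, SKO and sgControl cells, and of untreated THP-1 DKO, SKO and sgControl cells. MOLM-13 SKO and sgControl cells and OCI-AML-3 DKO and sgControl cells have 2 libraries each, which makes 35 libraries in 13 groups. The TPA dose and time are not given in the sources used here. Nothing in the labels says whether replicates were separate cultures, so each p-value is set by the spread among the sequenced libraries alone, and that spread may be technical. The column names carry a clone number for the U937 DKO libraries (clone 3) and for the THP-1 SKO and sgControl libraries (clone 1), and none for the others. They also carry 6-digit codes, of which the THP-1 DKO libraries have one and the THP-1 SKO and sgControl libraries another, and the U937 DKO libraries lack the code of the U937 SKO and sgControl libraries, so code and genotype cannot be told apart there.

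Library totals ran between 31985767 and 61178704 counts. The SUV39H1 transcript went against the label in U937 and THP-1: it averaged 81.0 CPM (the usual depth-scaled count, with TMM factors computed within a line) in the U937 libraries labelled DKO and 110.4 in those labelled SKO, against 65.0 in sgControl, and 57.0 and 92.4 in THP-1 DKO and SKO, against 33.9. With TPA it was 22.4 CPM in DKO, 53.6 in SKO and 36.3 in sgControl. It was 7.51 CPM in MOLM-13 SKO against 28.0 in sgControl, and 3.89 in OCI-AML-3 DKO against 39.7. DKO and SKO below therefore name libraries by their labels, and each direction given for them rests on those labels. SUV39H2 averaged 32.04 CPM in U937 DKO, 34.9 in SKO and 42.1 in sgControl. In THP-1, where SUV39H2 lies on the shifted chromosome 10, it averaged 14.2 CPM in DKO, 19.8 in SKO and 30.6 in sgControl. With TPA it averaged 9.96 CPM in U937 DKO, 20.9 in SKO and 19.9 in sgControl. It was also lower in MOLM-13 SKO, whose label names no SUV39H2 guide (12.1 CPM against 26.9 in sgControl, log2 -1.15), and less so in OCI-AML-3 DKO, whose label names one (21.3 against 26.7, log2 -0.33). The myeloid genes CD33, SPI1, CEBPA, LYZ, CSF3R, FCGR2A and ITGAM had at least 1 CPM on average in all 13 groups. Of the same list, CD14 reached that level in 8 groups, MPO in 7 and CD68 in 0. Of markers of other lineages, HBB was at 0 reads in 27 of 35 libraries, MS4A1 in 33, EPCAM in 30, and COL3A1 and DCN in 30 each. Genes of whole chromosomes differed between some groups. Relative to the median expressed gene, chromosome 7 had a median log2 fold change of -0.42 in untreated U937 DKO and -0.41 in TPA-treated U937 DKO, chromosome 10 one of -0.97 in THP-1 DKO and -0.96 in THP-1 SKO, and chromosome X one of 0.38 in U937 DKO and 0.43 in U937 SKO. MCM7 and RFC2 (chromosome 7), MCM10 (chromosome 10) and POLA1 (chromosome X) are therefore also set against their neighbours. Other chromosomes that hold members were shifted too. In U937 DKO, chromosome 18, which holds TYMS, had a median of -0.21 untreated and -0.40 with TPA. Chromosome 19, which holds CHAF1A, LIG1, POLD1 and CCNE1, had medians of 0.28 and 0.30 there.

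Because the members moved together in most comparisons, their promoters were searched for the words TTTCGCGC and TTTGGCGC, which are forms of the E2F site, on both strands (GCGCGAAA and GCGCCAAA on the other strand, so that a word and its reverse complement can overlap). The RefSeq promoter table of GRCh38.p14 holds windows running from 250 bases before to 50 bases into the transcript for 35 of the 40 members, 44 windows in all. An E2F word lay in 11 of the 44 member windows (25%), against 403 of all 35116 windows (1.15%). The 11 members were MCM2, MCM3, MCM6, MCM7, CDC6, E2F1, GINS1, POLA1, POLA2, POLE and POLE2. The word CCAAT, bound by NF-Y and read on the other strand as ATTGG, lay in 25 of the 44 windows (56.8%), against 34.6% of all windows. TTTGAA, the core of the CHR element of many mitotic genes and read on the other strand as TTCAAA, lay in 1 of the 44 (2.27%), against 15.2%. A match is a description of letters, not a measured binding site. The following 6 promoters are shown because they carry the E2F words in the helicase subunits, the licensing factor and the E2F gene whose levels are given below; each runs 190 bases, from 160 before the start, 5′ to 3′ on the gene's own strand, with the E2F words in capitals. They lie at chr3:127598251-127598440 (MCM2, plus strand), chr6:52284713-52284902 (MCM3, minus strand), chr2:135876414-135876603 (MCM6, minus strand), chr7:100101368-100101557 (MCM7, minus strand), chr17:40287719-40287908 (CDC6, plus strand) and chr20:33686356-33686545 (E2F1, minus strand).
MCM2: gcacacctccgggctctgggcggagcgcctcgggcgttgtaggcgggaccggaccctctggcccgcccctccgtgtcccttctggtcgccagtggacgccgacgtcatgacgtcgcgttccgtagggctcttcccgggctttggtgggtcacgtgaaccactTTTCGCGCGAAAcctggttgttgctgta
MCM3: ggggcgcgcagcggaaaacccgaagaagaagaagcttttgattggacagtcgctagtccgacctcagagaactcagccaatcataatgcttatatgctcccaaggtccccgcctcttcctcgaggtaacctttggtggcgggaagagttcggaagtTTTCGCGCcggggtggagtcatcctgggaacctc
MCM6: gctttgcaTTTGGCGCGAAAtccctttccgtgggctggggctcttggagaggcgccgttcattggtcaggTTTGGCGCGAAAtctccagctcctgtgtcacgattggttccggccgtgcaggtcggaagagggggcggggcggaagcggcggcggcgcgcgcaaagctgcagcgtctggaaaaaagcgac
MCM7: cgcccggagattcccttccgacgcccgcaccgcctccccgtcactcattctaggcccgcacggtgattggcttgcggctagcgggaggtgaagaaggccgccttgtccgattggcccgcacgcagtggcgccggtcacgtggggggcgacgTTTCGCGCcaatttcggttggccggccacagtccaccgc
CDC6: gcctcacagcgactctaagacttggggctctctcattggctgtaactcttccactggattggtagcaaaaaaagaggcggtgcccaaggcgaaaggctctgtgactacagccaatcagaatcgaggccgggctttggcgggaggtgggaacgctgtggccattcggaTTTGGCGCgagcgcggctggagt
E2F1: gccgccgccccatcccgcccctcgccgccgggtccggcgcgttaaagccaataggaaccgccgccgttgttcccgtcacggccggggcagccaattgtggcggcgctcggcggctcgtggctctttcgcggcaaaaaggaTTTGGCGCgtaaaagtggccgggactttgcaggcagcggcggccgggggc
The first word began close to the transcription start in MCM2, MCM3, MCM7, CDC6 and E2F1, at positions 3, -4, -9, 8 and -20 counted from it, whereas in MCM6 the words began at -152, -148, -90 and -86.

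In control cells the most abundant members per kilobase of transcript were the clamp and the helicase. PCNA led in U937 sgControl libraries with 425.0 CPM per kilobase, ahead of MCM7 (191.9), MCM6 (178.8) and MCM3 (161.1). PCNA led likewise in MOLM-13 sgControl (365.1) and OCI-AML-3 sgControl (213.6), whereas in THP-1 sgControl libraries MCM3 led with 174.3, then TK1, the salvage thymidine kinase, with 111.6, and PCNA stood at 78.01 CPM per kilobase. POLA2, the regulatory subunit of polymerase alpha, was the lowest member per kilobase in each of these sgControl groups, at 1.667 in U937, 1.373 in THP-1, 1.856 in MOLM-13 and 2.259 in OCI-AML-3. In the U937 DKO libraries MCM7 stood at 78.37 CPM per kilobase, below MCM3 (149.0) and MCM6 (133.6), with PCNA at 437.7. Levels of MCM7, PRIM1, RFC4, RFC5, FEN1, TYMS, RRM1, CHAF1A, CHAF1B, CCNE2 and GINS2 are less certain, since another named gene overlaps each of them and reads were counted without regard to strand in the table whose header records it.

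Summed over the 40 members, RNA was lower in every group labelled DKO than in its control. The sum averaged 5115 ± 125 CPM in untreated U937 DKO libraries (SD, n = 3), 7628 ± 28.6 in SKO and 7306 ± 73.9 in sgControl. In THP-1 it averaged 3030 ± 20.7 in DKO, 5499 ± 124 in SKO and 5012 ± 116 in sgControl (SD, n = 3 each). The DKO sum was thus 70% of the control sum in U937 and 60.5% in THP-1, while every SKO library of both lines lay above its control libraries. In TPA-treated U937 cells the sums were 1463 ± 128 CPM in DKO, 4250 ± 28.8 in SKO and 4367 ± 34.0 in sgControl, so that the DKO sum was 33.5% of control. The MOLM-13 SKO libraries summed to 2327 and 2347 CPM, against 5957 and 5966 in sgControl (39.2%), and the OCI-AML-3 DKO libraries to 2770 and 2813, against 5530 and 5567 (50.3%). No library of a DKO group, or of MOLM-13 SKO, reached the range of its control. In bulk RNA, fewer cells in S phase and less of these RNAs per cell cannot be told apart.

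**Figure D1:**
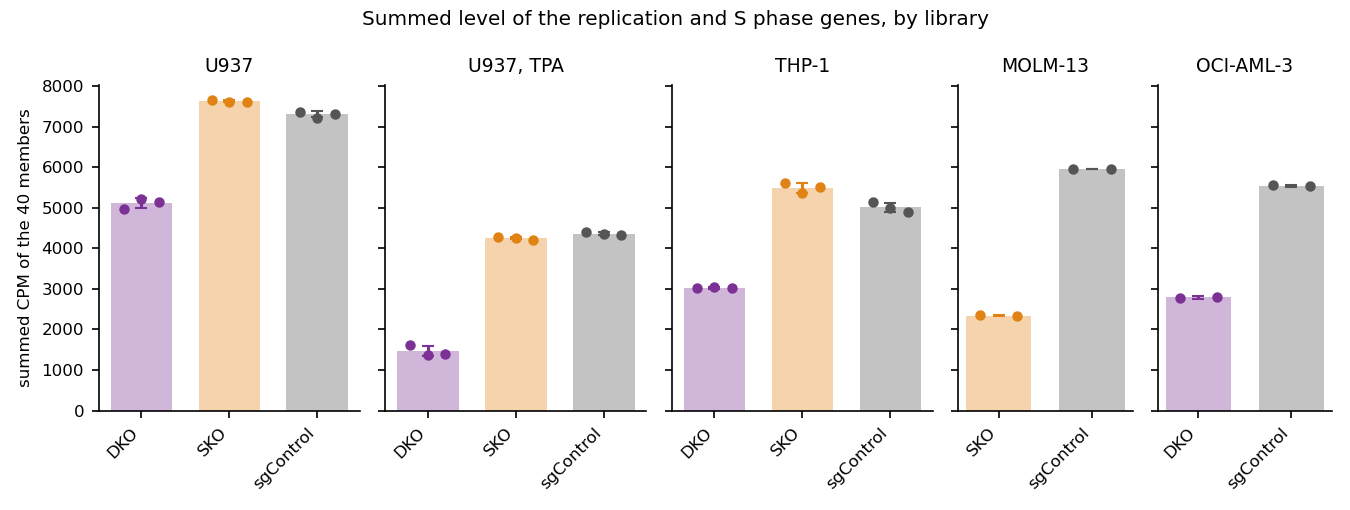
Summed level of the 40 replication and S phase genes (CPM, linear axis from 0) in each of the 13 groups, with DKO and SKO left of their sgControl. Bars are means, dots are libraries and error bars are SD; untreated U937 DKO sits at 5115 CPM against 7306 in sgControl, and TPA-treated U937 DKO at 1463 against 4367.

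In the 4 comparisons of DKO with sgControl, 34 of the 40 members were lower in all of them, beside 9.94% of the 13234 genes tested in all 4. The 6 exceptions were CHAF1A, ORC6, PCNA, POLE, PRIM2 and RFC4. A member is called higher or lower at an adjusted p below 0.05 in edgeR's quasi-likelihood test, with Benjamini-Hochberg adjustment over all genes of the fit. Fold changes are log2, with their standard error.

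**Figure D2:**
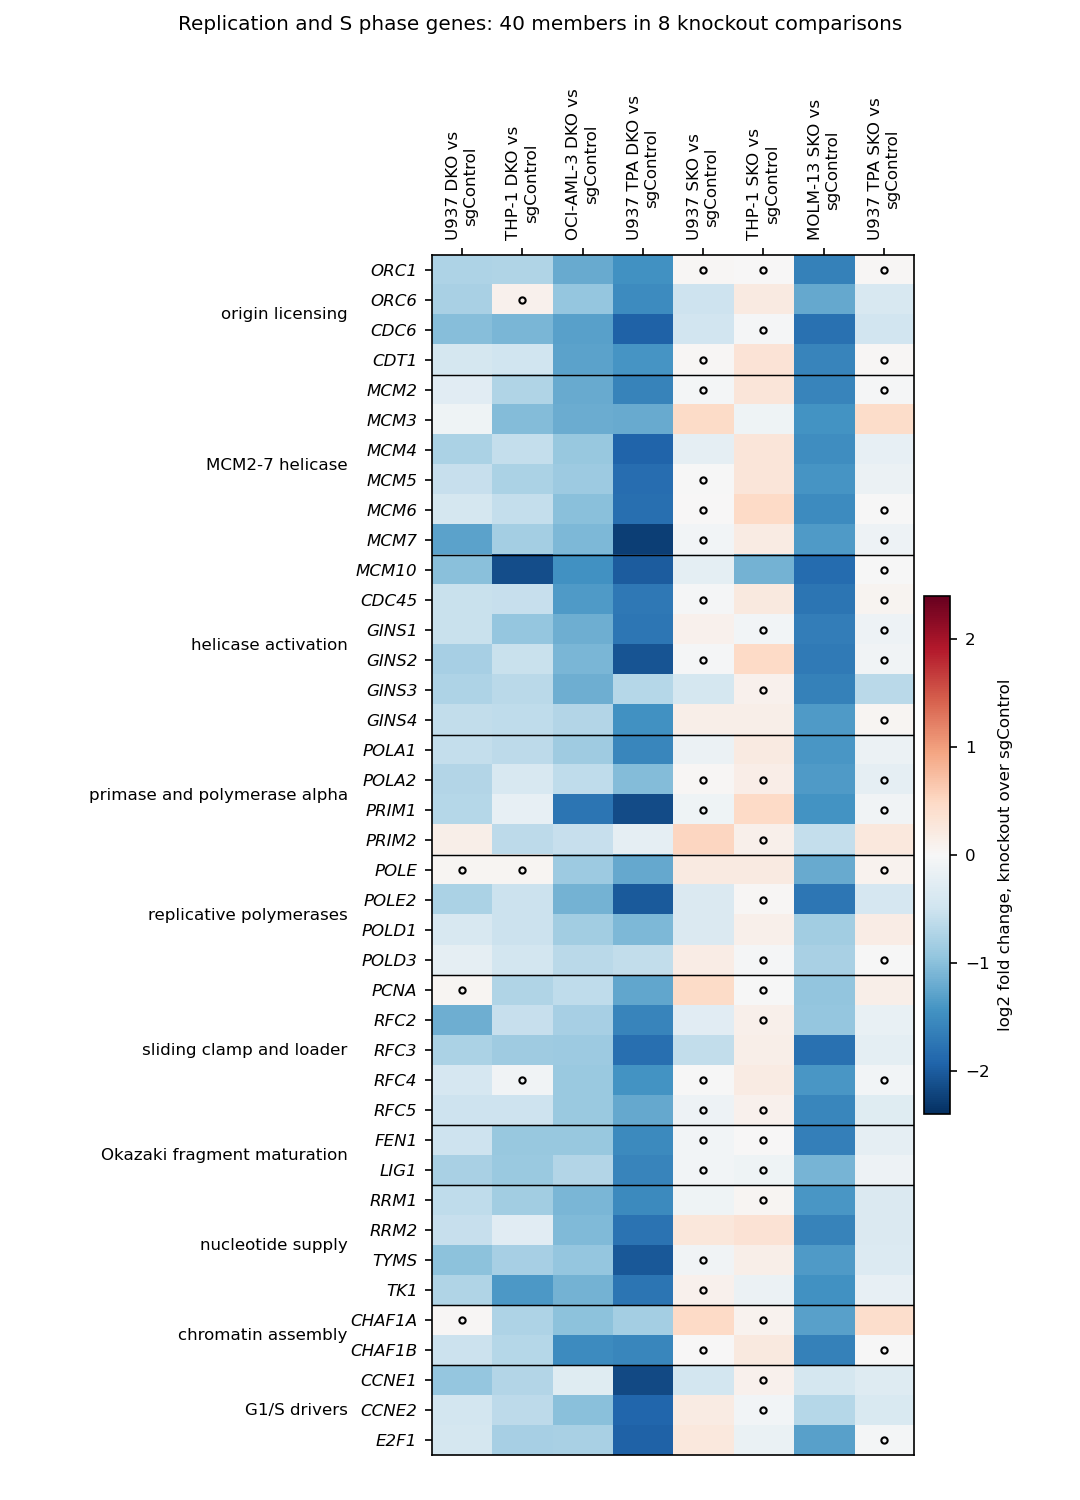
Log2 fold change of each of the 40 members (rows, by role) in DKO against sgControl and SKO against sgControl, for each line and treatment (columns); colour gives the log2 fold change and an open circle marks a member not called. Nearly all cells are blue in the DKO columns and in MOLM-13 SKO, while the U937 and THP-1 SKO columns are mixed.

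In untreated U937 cells, 36 of the 40 members were lower in DKO than in sgControl libraries and 1 was higher, beside 34.5% lower and 33.2% higher among the 14915 genes tested. The members' median log2 fold change was -0.56, against -0.01 over all genes tested. In each of the 36 the DKO libraries lay below all sgControl libraries. Such separation was not counted over all genes, here or in the comparisons below, so it describes the members only. All 4 licensing genes were lower. CDC6, the ATPase that loads the helicase, had 60.3, 59.6 and 55.7 CPM in DKO libraries, against 114.8, 119.4 and 122.0 in sgControl libraries, a log2 fold change of -1.02 ± 0.045 (adjusted p = 6.5e-18). ORC1, the ATPase subunit of the origin recognition complex, had 61.1, 68.6 and 64.3 CPM, against 107.5, 107.4 and 110.7 (-0.75). CDT1, the loading partner of CDC6, had a log2 fold change of -0.42 and ORC6, the smallest subunit of the complex, one of -0.78.

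The MCM helicase is a ring that holds its subunits in equal number, and its 6 genes fell by unequal amounts in U937 DKO libraries, with log2 fold changes between -1.29 and -0.11. MCM7 had 334.7, 350.9 and 345.7 CPM in DKO libraries, against 862.3, 827.9 and 834.2 in sgControl libraries (-1.29 ± 0.033, adjusted p = 1.9e-23). MCM4 had 418.6, 426.2 and 415.3 CPM, against 699.9, 714.2 and 711.2 (-0.75 ± 0.031). MCM3 had 530.9, 551.2 and 546.9 CPM, against 585.0, 583.5 and 593.4 (-0.11 ± 0.031, adjusted p = 0.0021). The groups did not overlap for any of the 3, and MCM5 (-0.55), MCM6 (-0.42) and MCM2 (-0.26) lay between MCM4 and MCM3. Chromosome 7, which holds MCM7, had a median of -0.42 here relative to the median expressed gene. Set against their neighbours, as given below, MCM7 and MCM3 lay closer together. All 6 helicase activation genes were lower, with log2 fold changes between -0.99 for MCM10, which helps load polymerase alpha, and -0.53 for GINS1.

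Among polymerase genes, POLA1, the catalytic subunit of polymerase alpha (-0.56), POLA2 (-0.69) and PRIM1, the catalytic primase subunit (-0.69), were lower in U937 DKO. PRIM2, the large primase subunit, had 38.1, 39.8 and 38.8 CPM in DKO libraries, against 36.5, 35.9 and 33.3 in sgControl libraries, and was the only member called higher (0.14 ± 0.055, adjusted p = 0.025). That call was lost without DKO replicate 2 (adjusted p = 0.072), without sgControl replicate 3 (adjusted p = 0.16) and with no filter on low counts (adjusted p = 0.1). POLE, the catalytic subunit of polymerase epsilon, had 89.9, 83.2 and 90.3 CPM in DKO libraries, against 77.7, 87.0 and 91.7, and its groups overlapped (0.04, adjusted p = 0.5). POLE2, a structural subunit of that enzyme, was lower (-0.76), as were POLD1, the catalytic subunit of polymerase delta (-0.38), and its accessory subunit POLD3 (-0.22).

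PCNA, the ring that tethers polymerases to DNA, had 591.5, 633.3 and 617.6 CPM in U937 DKO libraries, against 600.7, 598.4 and 589.9 in sgControl libraries (0.04 ± 0.032, adjusted p = 0.23), and the groups overlapped. Its loader subunits were lower. RFC2 had 53.7, 58.2 and 58.9 CPM, against 132.9, 125.2 and 126.4 (-1.17 ± 0.046, adjusted p = 4.6e-19), and RFC3, RFC5 and RFC4 had log2 fold changes of -0.76, -0.50 and -0.41. FEN1, the flap nuclease, had one of -0.49 and LIG1, the ligase of lagging-strand fragments, one of -0.77. Of the nucleotide genes, TYMS, which makes thymidylate, had 36.5, 38.5 and 33.8 CPM in DKO libraries, against 77.2, 69.5 and 69.3 (-0.99 ± 0.054). Chromosome 18, which holds TYMS, had a median of -0.21 here relative to the median expressed gene. TK1 (-0.71) and the ribonucleotide reductase subunits RRM1 (-0.61) and RRM2 (-0.56) were lower too. CHAF1B, a subunit of chromatin assembly factor 1, was lower (-0.52), whereas its partner CHAF1A had 98.6, 107.4 and 105.8 CPM, against 107.8, 95.8 and 101.9, and was not called (0.03, adjusted p = 0.57). CCNE1 (-0.93) and CCNE2 (-0.45), the E cyclins, and the transcription factor E2F1 (-0.42) were all lower.

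In THP-1 cells, 37 of the 40 members were lower in DKO than in sgControl libraries and 0 were higher, beside 33.7% lower and 31.9% higher among 18585 genes. The members' median was -0.64, against 0.05 over all genes tested and -0.17 over expressed genes (mean log2 CPM of 2 or more). That last shift, and one of -0.13 in THP-1 DKO against SKO, mean that THP-1 DKO values are also read relative to it. In each of the 37 the DKO libraries lay below all sgControl libraries. MCM10, on chromosome 10, had 21.8, 21.3 and 22.9 CPM in DKO libraries, against 95.4, 96.4 and 95.8 in sgControl libraries (-2.12 ± 0.057, adjusted p = 2.3e-23). TK1 had 79.4, 77.0 and 82.7 CPM, against 228.1, 198.0 and 191.4 (-1.37 ± 0.054, adjusted p = 1.7e-19). CDC6 had 46.8, 49.8 and 45.3 CPM, against 100.9, 100.8 and 100.4 (-1.09 ± 0.049, adjusted p = 4.9e-18). These groups stood well apart. The 6 helicase genes, not set against their neighbours, were closer together than in U937, between -1.04 for MCM3 and -0.58 for MCM4 and MCM6.

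PCNA, which did not pass the test in U937, had 65.1, 67.8 and 66.4 CPM in THP-1 DKO libraries, against 109.2, 110.3 and 108.8 in sgControl libraries (-0.72 ± 0.044). CHAF1A had 67.6, 73.7 and 66.2 CPM, against 120.3, 112.5 and 112.5 (-0.74 ± 0.048), and PRIM2 had 32.7, 36.0 and 37.1, against 55.8, 55.0 and 52.1 (-0.62 ± 0.056). All 3 groups were separated in THP-1. The members not called were ORC6 (0.09, adjusted p = 0.19), POLE (0.05, adjusted p = 0.37) and RFC4 (-0.09, adjusted p = 0.18), and the groups overlapped in each. POLE had 94.3, 101.8 and 93.2 CPM in DKO libraries, against 95.0, 89.7 and 94.5, so this subunit was not called in either line. ORC6 had 29.5, 32.1 and 32.1 CPM, against 28.8, 28.8 and 30.2, while in U937 it had 25.9, 23.9 and 24.3 in DKO, against 44.7, 40.9 and 41.6.

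The difference between the lines was tested in 1 fit of the 18 untreated U937 and THP-1 libraries. The DKO fold change was higher in U937 than in THP-1 for 17 members and lower for 8, beside 29.7% higher and 24.7% lower among 18715 genes. The members' median difference was 0.11, against 0.15 over expressed genes and -0.01 over all genes. The 2 highest and 2 lowest were MCM10 (1.17 ± 0.086), MCM3 (0.97 ± 0.048), ORC6 (-0.83 ± 0.087) and RFC2 (-0.56 ± 0.072), with MCM7 at -0.44 ± 0.053. PCNA, PRIM2 and CHAF1A each had a difference of 0.81. The split was not stable to single libraries: it was 10 higher and 9 lower without U937 DKO replicate 2, 11 and 10 without U937 DKO replicate 3, 11 and 9 without U937 sgControl replicate 3, and 18 and 5 without THP-1 sgControl replicate 1. The library codes differ between genotypes in both lines, and their part in these differences was not tested.

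Between the DKO and SKO libraries of U937, 39 members were lower in DKO and 0 higher, beside 24.9% lower and 24.1% higher among all genes, with a members' median of -0.52. MCM7 fell furthest of the 40 (-1.23 ± 0.033), with 334.7 to 350.9 CPM in DKO libraries and 793.4 to 827.7 in SKO libraries. TYMS was 33.8 to 38.5 CPM, against 68.2 to 68.6 (-0.91 ± 0.055), and RFC2 53.7 to 58.9, against 101.6 to 109.2 (-0.90 ± 0.046). MCM7 and RFC2 lie on chromosome 7, whose genes had a median of -0.56 here relative to the median expressed gene. POLD1 was the member not called, at 139.1 to 143.4 CPM in DKO and 134.4 to 150.4 in SKO (-0.03, adjusted p = 0.58). In THP-1, 39 members were lower in DKO than in SKO libraries and 0 higher, beside 28.5% lower and 25.3% higher, and the median was -0.80. TK1 (-1.23 ± 0.053), CDC6 (-1.06 ± 0.049) and MCM5 (-1.05 ± 0.044) fell furthest. ORC6 was not called (-0.13, adjusted p = 0.086), although its DKO libraries, at 29.5 to 32.1 CPM, lay below its SKO libraries, at 32.6 to 35.8.

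The SKO libraries of U937 were mixed: 11 members were higher than in sgControl and 12 lower, beside 30.7% higher and 31.2% lower among all genes, and the members' median was -0.03. The share called was near that of all genes in both directions. PRIM2 had 50.0, 49.9 and 52.3 CPM in SKO libraries, against 36.5, 35.9 and 33.3 in sgControl libraries (0.52 ± 0.054, adjusted p = 1.8e-09). CHAF1A had 145.9, 138.9 and 142.4 CPM, against 107.8, 95.8 and 101.9 (0.48 ± 0.045). MCM3 had 815.5, 807.3 and 796.9, against 585.0, 583.5 and 593.4 (0.45 ± 0.031, adjusted p = 1.8e-13). PCNA rose by a similar amount (0.45 ± 0.032), and in all 4 the groups were separate. RFC3 had 61.6, 58.3 and 66.4 CPM in SKO, against 92.95, 89.07 and 97.83 (-0.59 ± 0.050, adjusted p = 2e-11), ORC6 had 31.0, 29.2 and 30.3, against 44.7, 40.9 and 41.6 (-0.50 ± 0.060), and CDC6 had 85.0, 86.3 and 88.6, against 114.8, 119.4 and 122.0 (-0.46 ± 0.044). These groups were separate as well. On chromosome 7, RFC2 had 109.2, 108.8 and 101.6 CPM, against 132.9, 125.2 and 126.4 (-0.27 ± 0.044), and MCM7 had 827.7, 804.4 and 793.4, against 862.3, 827.9 and 834.2 (-0.06 ± 0.032, adjusted p = 0.1).

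The SKO libraries of THP-1 had 19 members higher than sgControl and 4 lower, beside 20.6% higher and 22.8% lower among all genes, with a members' median of 0.13 against 0.01. PRIM1 had 48.3, 47.6 and 47.6 CPM in SKO libraries, against 32.6, 35.6 and 34.6 in sgControl libraries (0.48 ± 0.056, adjusted p = 2.2e-08). GINS2 had 53.4, 46.8 and 47.8, against 36.5, 35.3 and 34.5 (0.48 ± 0.061), and MCM6 had 410.1, 379.3 and 408.7, against 287.3, 290.2 and 288.2 (0.47 ± 0.039, adjusted p = 2.1e-11). The groups did not overlap in any of the 3. Of the MCM helicase, 5 subunits were higher (MCM2, MCM4, MCM5, MCM6, MCM7, log2 fold changes 0.19 to 0.47) and MCM3 was lower (-0.10). MCM10, on chromosome 10, had 40.5, 43.9 and 46.0 CPM in SKO libraries, against 95.4, 96.4 and 95.8 (-1.14 ± 0.053, adjusted p = 2.1e-17). E2F1 (-0.17, adjusted p = 0.018) and TK1 (-0.14, adjusted p = 0.032) were also called lower, but their groups overlapped. E2F1 was no longer called without sgControl replicate 1 (adjusted p = 0.053), sgControl replicate 2 (0.081) or SKO replicate 3 (0.19), and TK1 without sgControl replicate 1 (0.3), SKO replicate 2 (0.21) or SKO replicate 3 (0.084), or in DESeq2 (0.055). The count of lower members was accordingly 2, 2 and 1 without sgControl replicate 1, SKO replicate 2 and SKO replicate 3.

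The SKO change was not the same set in U937 and THP-1. GINS4, POLE and RRM2 were higher in both lines and MCM10 lower in both, E2F1 and MCM3 were higher in U937 and lower in THP-1, and MCM4, ORC6, POLA1, POLD1 and RFC3 were lower in U937 and higher in THP-1. The shares of all genes called alike or oppositely in the lines were not counted. The difference of the SKO effects (U937 minus THP-1) was higher for 10 members and lower for 23, beside 24.1% and 22.7% of all genes, with a members' median of -0.21. MCM10 (0.92 ± 0.081) and MCM3 (0.57 ± 0.048) had the highest differences and RFC3 (-0.71 ± 0.073) and ORC6 (-0.71 ± 0.085) the lowest. Relative to the median expressed gene, chromosome 10, which holds MCM10, had medians of -0.96 in THP-1 SKO and 0.92 for this difference. MCM3 sat among genes that were higher in U937 SKO and lay below their median, as given below. The count of higher members was 6 without U937 sgControl replicate 3, without U937 SKO replicate 2 and without U937 SKO replicate 3.

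In MOLM-13 all 40 members were lower in SKO than in sgControl libraries, beside 32.2% lower and 31.8% higher among 15472 genes. The median was -1.42, and in every member both SKO libraries lay below both sgControl libraries. With 2 libraries a group this fit had 2 residual degrees of freedom. MCM10 had 28.1 and 26.1 CPM in SKO, against 98.1 and 96.1 in sgControl (-1.84 ± 0.050, adjusted p = 2.4e-24). CDC6 had 26.6 and 23.4, against 87.5 and 85.9 (-1.79 ± 0.054), and RFC3 had 29.0 and 29.5, against 98.9 and 103.5 (-1.79 ± 0.048). MCM4, the most abundant member here before correction for length, had 334.0 and 333.7 CPM, against 943.3 and 939.1. The 6 helicase genes had log2 fold changes between -1.59 and -1.35, a narrow band beside the U937 DKO range, neither being set against neighbours. The smallest changes were those of CCNE1 (18.8 and 18.3 CPM in SKO, against 23.7 and 25.7, log2 -0.41 ± 0.076), PRIM2 (-0.58), CCNE2 (-0.68), POLD3 (-0.79) and POLD1 (-0.83).

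In OCI-AML-3 all 40 members were lower in DKO than in sgControl libraries, beside 25.6% lower and 24.3% higher among 16175 genes, with a median of -0.96. This fit too had 2 residual degrees of freedom, and every DKO library lay below both sgControl libraries in every member. PRIM1 had 11.64 and 10.98 CPM in DKO, against 38.04 and 38.01 in sgControl (-1.75 ± 0.090, adjusted p = 1.5e-22). CHAF1B had 12.2 and 11.2, against 33.5 and 32.8 (-1.50 ± 0.092), and MCM10 had 40.7 and 39.7, against 110.0 and 109.6 (-1.45 ± 0.064). The smallest changes were CCNE1 (23.5 and 24 CPM, against 30.4 and 27.4, log2 -0.28 ± 0.085), PRIM2 (-0.55), PCNA (-0.60) and POLA2 (-0.61). CCNE1 and PRIM2 were thus near the upper end of the members' range in both MOLM-13 SKO and OCI-AML-3 DKO, while CCNE1 fell by 0.93 in U937 DKO.

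TPA-treated and untreated U937 libraries come from separate deposited tables, so treatment and table cannot be told apart in what follows. In 1 fit of the 18 U937 libraries, TPA-treated sgControl cells had 38 members lower and 1 higher than untreated sgControl cells, beside 33.2% lower and 34.6% higher among 16989 genes. TPA-treated SKO cells had 40 lower and 0 higher (31.4% and 31.5% of all genes), and TPA-treated DKO cells 40 lower and 0 higher (36.2% and 36.9%). With DESeq2's size factors or DESeq2's test the SKO count was 39 lower. The members' medians were -0.75 in sgControl, -0.82 in SKO and -1.73 in DKO, where expressed genes shifted by -0.10, -0.09 and -0.12. The summed level with TPA was 59.8% of that without in sgControl, 55.7% in SKO and 28.6% in DKO. In 39 of the 40 members the TPA fold change was lowest in DKO, the exception being GINS3, beside 42.3% of the 16989 genes tested and 53.7% of the 5638 genes called lower with TPA in sgControl.

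GINS2, a subunit of the active helicase, had 24.7, 23.7 and 26.5 CPM in TPA-treated sgControl libraries, against 68.3, 65.4 and 69.4 untreated (-1.44 ± 0.064). In DKO it had 6.91, 5.08 and 6.03 CPM with TPA, against 37.3, 41.1 and 38.3 untreated (-2.69 ± 0.080, adjusted p = 1.2e-26), and in SKO its log2 fold change was -1.48 ± 0.064. TK1 had log2 fold changes with TPA of -1.35 ± 0.073 in sgControl, -1.64 ± 0.074 in SKO and -2.37 ± 0.088 in DKO. In DKO it had 9.26, 7.27 and 6.88 CPM with TPA, against 35.4, 43.5 and 42.0 untreated. GINS1 had log2 fold changes of -1.15, -1.37 and -2.33 in the same order, and MCM10 one of -0.91 in sgControl. None of these groups overlapped with its untreated counterpart.

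CCNE2, an E cyclin, was the single member called higher with TPA in sgControl cells, with 23.7, 23.8 and 23 CPM, against 21.7, 20.2 and 19.9 untreated (0.19 ± 0.079, adjusted p = 0.034). That call was lost without untreated sgControl replicate 2 (adjusted p = 0.094) or 3 (0.11), without TPA replicate 1 (0.074) or 2 (0.079), and with no filter on low counts (0.15). In SKO cells CCNE2 was lower with TPA (-0.35), and in DKO cells it had 7.40, 6.49 and 5.23 CPM with TPA, against 15.3, 15.9 and 14.1 untreated (-1.24). POLE was not called with TPA in sgControl cells (85.5, 86.2 and 84.6 CPM, against 77.7, 87.0 and 91.7 untreated, log2 0.00, adjusted p = 0.99), but in DKO cells it had 35.5, 39.2 and 36.1 CPM with TPA, against 89.9, 83.2 and 90.3 untreated (-1.25).

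**Figure D3:**
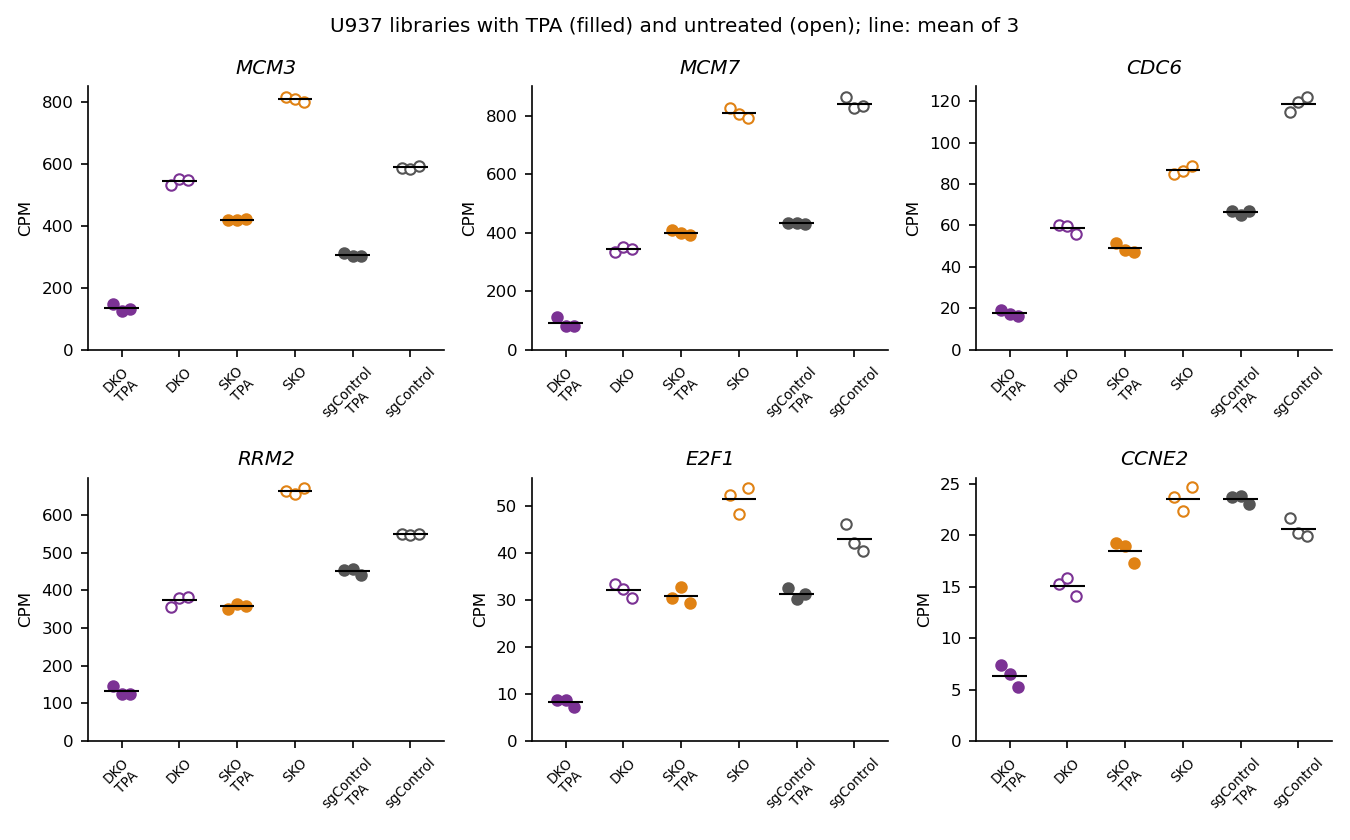
Levels (CPM) of MCM3, MCM7, CDC6, RRM2, E2F1 and CCNE2 in the 6 U937 groups, TPA-treated and untreated DKO, SKO and sgControl; dots are libraries and lines are means. In each panel the TPA-treated DKO libraries are the lowest, for example 79.7 to 110.4 CPM for MCM7.

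Among TPA-treated U937 cells, all 40 members were lower in DKO than in sgControl libraries, beside 36.5% lower and 34.1% higher among 16246 genes. The median was -1.58, against -0.05 over all genes tested. With DESeq2's size factors or DESeq2's test 39 members were called lower, and 39 to 40 in fits leaving out 1 library. Every DKO library lay below every sgControl library in each member. MCM7 had 110.4, 82.1 and 79.7 CPM in DKO, against 431.4, 432.2 and 431.2 in sgControl (-2.27 ± 0.067, adjusted p = 2.7e-21). CCNE1 had 5.86, 3.07 and 4.67, against 20.5, 20.0 and 20.1 (-2.17 ± 0.124), and PRIM1 had 4.70, 2.23 and 2.69, against 15.4, 14.1 and 12.8 (-2.15 ± 0.158). DKO replicate 1 was the highest of the 3 DKO libraries in these members. RFC2 had 24.7, 19.9 and 22.1 CPM, against 66.6, 66.7 and 64.9 (-1.59 ± 0.066). The 3 members whose DKO change had not passed the test without TPA were lower here, PCNA with 177.7, 151.3 and 168.3 CPM, against 388.5, 386.2 and 389.3 (-1.24), POLE with -1.23 and CHAF1A with -0.81. PRIM2 was also lower, by the smallest amount (17.4, 21 and 19.5 CPM, against 22.6, 21.2 and 22.4, log2 -0.21 ± 0.078, adjusted p = 0.019), and then POLD3 (-0.59) and GINS3 (-0.68).

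Between TPA-treated DKO and SKO libraries, 39 members were lower in DKO and 0 higher, beside 32.4% lower and 31.3% higher, with a median of -1.50. MCM7 (-2.14 ± 0.067), PRIM1 (-2.07 ± 0.158) and MCM10 (-2.00 ± 0.083) fell furthest, and RFC2 had -1.42 ± 0.066. Chromosome 7, which holds MCM7 and RFC2, had a median of -0.48 here relative to the median expressed gene. MCM10 had 8.65, 7.77 and 6.5 CPM in DKO, against 30.6, 30.8 and 30.1 in SKO. GINS3, a subunit of the GINS complex, was not called, with 14.1, 14.3 and 11.9 CPM in DKO, against 13.5, 12.9 and 14.8 in SKO (-0.03, adjusted p = 0.78).

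The DKO change itself was larger with TPA: the difference of the DKO effects (TPA minus untreated) was lower for 38 members and higher for 0, beside 27.8% and 21.7% of all genes, with a median of -1.02. E2F1 (-1.50 ± 0.102, adjusted p = 5.3e-15) and PRIM1 (-1.44 ± 0.185) had the largest differences. E2F1 had 8.79, 8.75 and 7.33 CPM in TPA-treated DKO, against 32.6, 30.3 and 31.3 in TPA-treated sgControl. Without TPA it had 33.5, 32.4 and 30.5 CPM in DKO, against 46.3, 42.2 and 40.4 in sgControl. The other G1/S genes, CCNE2 (-1.43) and CCNE1 (-1.21), the helicase genes (-1.38 for MCM6 to -0.96 for MCM7) and PCNA (-1.27) went the same way. GINS3 (0.07, adjusted p = 0.62) and POLA2 (-0.33, adjusted p = 0.12) were not called.

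The SKO change was small with TPA. In TPA-treated cells 5 members were higher in SKO than in sgControl and 18 lower, beside 25.8% higher and 24.6% lower among all genes, with a median of -0.13. MCM3 had 417.8, 418.5 and 419.6 CPM in SKO, against 312.4, 302.6 and 303.3 in sgControl (0.43 ± 0.041), CHAF1A had 89.1, 86.8 and 93.3, against 63.7, 67.6 and 66.4 (0.43 ± 0.047), and PRIM2 had 25.6, 28.9 and 25.1, against 22.6, 21.2 and 22.4 (0.25 ± 0.075, adjusted p = 0.007). The groups were separate in all 3, though PRIM2 was no longer called without SKO TPA replicate 2 (adjusted p = 0.068). GINS3 had 13.5, 12.9 and 14.8 CPM, against 22.7, 19.8 and 21.5 (-0.65 ± 0.086), CDC6 had 51.6, 47.9 and 47.4, against 67.0, 65.1 and 67.1 (-0.46 ± 0.055), and POLE2 had -0.40 ± 0.103. All 4 nucleotide supply genes were lower (-0.35 to -0.19). CHAF1A, MCM3, PCNA and PRIM2 were higher in SKO with and without TPA, and CCNE1, CDC6, GINS3, MCM4, ORC6, POLA1, POLE2, RFC2, RFC3 and RRM1 lower in both. The share of all genes called the same way in both was not counted, so these lists describe the members only. In untreated SKO, CHAF1A, MCM3 and PRIM2 sat among genes that were higher, as given below.

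The difference of the SKO effects (TPA minus untreated) was higher for 3 members and lower for 10, beside 19.6% and 18.1% of all genes, with a median of -0.04. RRM2, the regulated subunit of ribonucleotide reductase, went in opposite directions: it had 351.1, 362.9 and 359.0 CPM in TPA-treated SKO, against 455.2, 456.3 and 441.5 in TPA-treated sgControl. Without TPA it had 664.0, 655.3 and 672.2 CPM in SKO, against 550.3, 546.9 and 550.0 in sgControl (difference -0.61 ± 0.057, adjusted p = 4.1e-11). CCNE2 moved likewise (-0.54 ± 0.113), and POLD1 in the other sense, with 126.2, 118.4 and 122.7 CPM in TPA-treated SKO, against 105.9, 103.0 and 110.4 in TPA-treated sgControl, and 149.0, 150.4 and 134.4 in untreated SKO, against 191.4, 175.7 and 183.2 (0.55 ± 0.062). RFC3 had a difference of 0.37 ± 0.072. Without U937 sgControl replicate 3 the count fell to 7 members, 2 higher and 5 lower.

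Members were then set against the expressed genes within 10 Mb that are not members. In untreated U937 DKO, 39 of 40 members lay below the median of their neighbours, the exception being POLE, which lay 0.16 above. The neighbours of MCM7 had a median of -0.48 relative to all expressed genes, and MCM7 lay at -0.77 relative to them. RFC2 had 60 neighbours with a median of -0.60 and lay at -0.53 relative to them. Both chromosome 7 members were therefore lower than the genes around them, but by less than their log2 fold change. Conversely, the 3 members not called or called higher besides POLE sat among genes that were higher: the neighbours of PRIM2 had a median of 0.51 (21 genes), those of CHAF1A 0.49 (241 genes) and those of PCNA 0.28 (61 genes). Relative to them PRIM2 lay at -0.33, CHAF1A at -0.42 and PCNA at -0.20, and MCM3, whose 59 neighbours had a median of 0.61, lay at -0.68. POLA1, on chromosome X, had neighbours at 0.04 (37 genes) and lay at -0.57.

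The same held in part for the SKO libraries of U937, where the neighbours of MCM3 had a median of 0.69, those of PRIM2 0.47 and those of CHAF1A 0.35. MCM3 lay at -0.23 relative to its neighbours, PRIM2 at 0.05, CHAF1A at 0.14 and PCNA at 0.29, and 18 of 40 members lay above their neighbours and 22 below. In THP-1 the 55 neighbours of MCM10 had a median of -0.94 in SKO and -1.05 in DKO, relative to which MCM10 lay at -0.18 in SKO and at -0.90 in DKO. In THP-1 SKO, 32 of 40 members lay above their neighbours and 8 below, and in THP-1 DKO 37 lay below and ORC6, POLE and RFC4 above. With TPA all 40 members of U937 DKO lay below their neighbours, MCM7 at -1.70 and RFC2 at -0.96. For the difference of DKO effects between U937 and THP-1, the neighbours of MCM10 had a median of 0.99 and those of MCM3 0.70, leaving 0.03 and 0.12, while ORC6, whose neighbours had 0.12, was left at -1.10. Leaving out MCM7, RFC2 and MCM10, the counts of the remaining 37 members were 1 higher and 33 lower in U937 DKO, 11 and 10 in U937 SKO, 0 and 34 in THP-1 DKO, and 18 and 3 in THP-1 SKO.

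**Figure D4:**
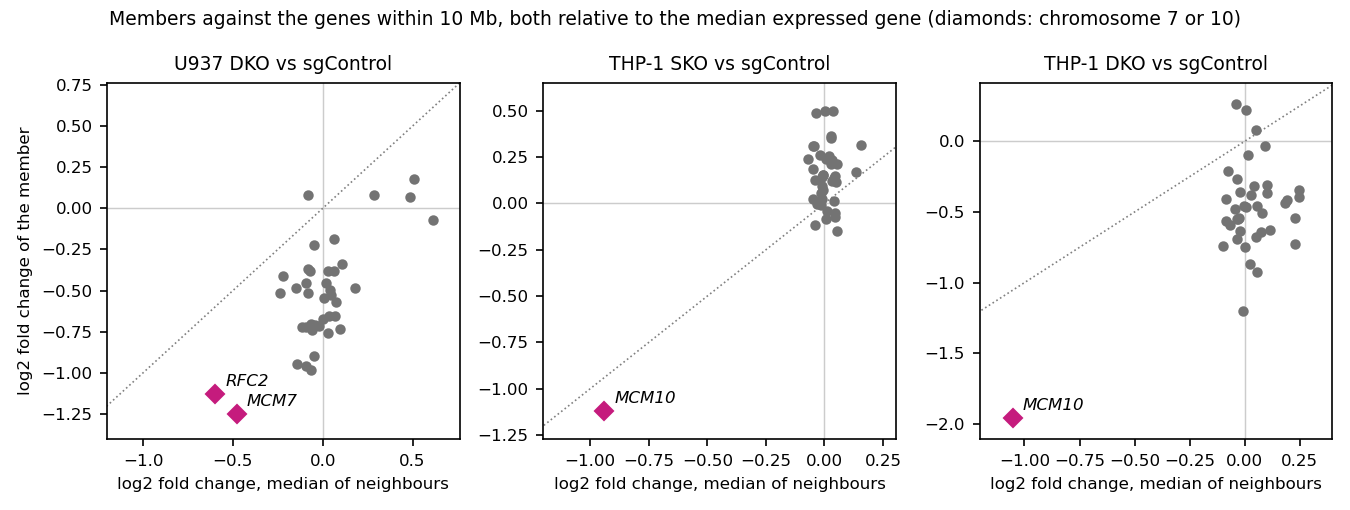
Log2 fold change of each member (y axis) against the median of its neighbours within 10 Mb (x axis), both relative to the median expressed gene, in U937 DKO, THP-1 SKO and THP-1 DKO against sgControl; the dotted line is equality and diamonds mark members on chromosomes 7 and 10. In U937 DKO 39 of 40 points lie below the line, and in THP-1 SKO 32 of 40 lie above it.

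The 11 members with an E2F word in their promoter did not stand apart by their fold changes from the 24 with a window and no word, as a description: their medians were -0.53 and -0.65 in U937 DKO, -0.72 and -0.66 in THP-1 DKO, -1.73 and -1.55 in TPA-treated U937 DKO, -1.44 and -1.44 in MOLM-13 SKO, and -1.08 and -0.96 in OCI-AML-3 DKO.

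Other genes of the same processes were counted from lists that share no gene with the members. Among all genes tested, 34.5% were lower and 33.2% higher in U937 DKO, and 33.7% and 31.9% in THP-1 DKO. The shares were 36.5% and 34.1% in TPA-treated U937 DKO, 32.2% and 31.8% in MOLM-13 SKO and 25.6% and 24.3% in OCI-AML-3 DKO. These shares stand beside the counts of each list below. Of 33 further replisome genes (further polymerase subunits, RPA, origin firing and fork proteins), 26 were lower and 2 higher in U937 DKO, 24 and 2 in THP-1 DKO, 28 and 0 of 32 tested in TPA-treated U937 DKO, 31 and 1 in MOLM-13 SKO, and 29 and 2 in OCI-AML-3 DKO. In U937 DKO the lowest was POLD2, a polymerase delta subunit on chromosome 7 (126.0 CPM in DKO, against 304.7 in sgControl, log2 -1.27). In THP-1 DKO it was DNA2, a nuclease-helicase on chromosome 10 (10.2 CPM, against 28.2, log2 -1.47). Both lie on the chromosomes whose genes were shifted as a whole in those libraries. Of 10 genes of S phase chromatin, 9 were lower and 1 higher in U937 DKO, and all 10 were lower in THP-1 DKO, TPA-treated U937 DKO, MOLM-13 SKO and OCI-AML-3 DKO. UHRF1, which recruits the maintenance DNA methyltransferase to replicated DNA, had 29.5 CPM in TPA-treated DKO, against 127.1 in TPA-treated sgControl (-2.12 ± 0.051).

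Of 13 replication checkpoint genes, 11 were lower and 0 higher in U937 DKO, 8 and 1 in THP-1 DKO, 12 and 1 in TPA-treated U937 DKO, 12 and 0 in MOLM-13 SKO and 11 and 1 in OCI-AML-3 DKO. CDC25A, the phosphatase that activates cyclin-dependent kinase 2 at the start of S phase, had log2 fold changes of -1.11 in U937 DKO, -0.89 in THP-1 DKO, -1.77 in TPA-treated DKO, -1.83 in MOLM-13 SKO and -1.32 in OCI-AML-3 DKO. Of 24 further nucleotide synthesis genes, 19 were lower and 2 higher in U937 DKO, 23 and 1 in THP-1 DKO, 21 and 2 in TPA-treated U937 DKO, 22 and 2 in MOLM-13 SKO and 20 and 1 in OCI-AML-3 DKO. SAMHD1, which degrades deoxynucleotides, was higher in U937 DKO, with 18.8 CPM against 8.22 in sgControl (1.19 ± 0.086), in TPA-treated U937 DKO, with 122.6 against 15.95 (2.92 ± 0.056), and in MOLM-13 SKO, with 268.5 against 71.2 (1.91 ± 0.034). It was lower, like the members, in THP-1 DKO, with 590.5 CPM against 777.4 in sgControl (-0.40 ± 0.035), and in OCI-AML-3 DKO, with 288.3 against 355.0 (-0.30 ± 0.050). Of 20 mitosis genes, 19 were lower and 0 higher in U937 DKO, TPA-treated U937 DKO, MOLM-13 SKO and OCI-AML-3 DKO, and 16 were lower and 2 higher in THP-1 DKO. In THP-1 SKO, where 19 members were higher, 13 mitosis genes were lower and 1 higher, beside 22.8% and 20.6% of all genes. The lowest were MKI67 (-1.27) and KIF11 (-1.21), both on chromosome 10. In U937 SKO 8 of the 20 mitosis genes were higher and 5 lower, beside 30.7% and 31.2% of all genes, with MKI67 among the higher (0.82).

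Of the genes of RB and E2F control, 10 were higher and 13 lower of 26 tested in U937 DKO, where 33.2% and 34.5% of all genes were. The counts were 5 and 17 of 25 in THP-1 DKO (31.9% and 33.7% of all genes), 6 and 17 of 26 in TPA-treated DKO (34.1% and 36.5%), 3 and 18 of 24 in MOLM-13 SKO (31.8% and 32.2%) and 4 and 15 of 25 in OCI-AML-3 DKO (24.3% and 25.6%). CDKN1A, which encodes the kinase inhibitor p21, averaged 1231 CPM in TPA-treated DKO, 391.1 in TPA-treated SKO and 98.4 in TPA-treated sgControl (3.63 ± 0.040 and 1.97 ± 0.038 against sgControl). Without TPA it averaged 13.8 CPM in U937 DKO, 12.8 in SKO and 4.23 in sgControl. It averaged 751.6 CPM in MOLM-13 SKO against 184.0 (2.03 ± 0.027) and 265.4 in OCI-AML-3 DKO against 30.5 (3.12 ± 0.063). In THP-1 it was lower in both, at 41.7 CPM in DKO and 20.5 in SKO against 125.7 in sgControl (-1.59 ± 0.056 and -2.61 ± 0.059). Its part in the members' levels was not tested, and the directions of CDKN1A and the members in each group are given as a description. CDKN1A was higher and most members lower in U937 DKO with and without TPA, MOLM-13 SKO and OCI-AML-3 DKO. It was also higher in U937 SKO (1.60 ± 0.112), near its DKO level, where 11 members were higher and 12 lower, and in TPA-treated SKO, where the members' sum was 97.3% of control. It was lower in THP-1 DKO, where 37 members were lower, and in THP-1 SKO, where 19 members were higher and 4 lower.

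Markers of maturation and RNA quality also differed between groups, and their part in the members' levels was not tested. The summed level of 10 myeloid genes averaged 9386 CPM in MOLM-13 SKO against 1969 in sgControl, 2110 in OCI-AML-3 DKO against 1013, 1233 in U937 DKO and 1153 in SKO against 597.3, 1318 in THP-1 DKO and 1030 in SKO against 837.9, and 1184 in TPA-treated DKO and 789.2 in SKO against 1021. LYZ, which encodes lysozyme, made up a share of these sums that differed between groups. It had 7478 CPM in MOLM-13 SKO against 566.5 in sgControl, and 1218 in OCI-AML-3 DKO against 259.2. In TPA-treated U937 cells LYZ had 163.0 CPM in DKO and 194.5 in SKO against 625.1. The other 9 genes summed to 1908 CPM in MOLM-13 SKO against 1403 in sgControl, with MPO, the myeloperoxidase gene, at 117.4 against 343.7. They summed to 892.1 CPM in OCI-AML-3 DKO against 753.9, 848.5 in U937 DKO and 679.2 in SKO against 332.9, 823.5 in THP-1 DKO and 770.3 in SKO against 749.2, and 1021 in TPA-treated DKO and 594.6 in SKO against 395.5. Without LYZ the TPA-treated SKO sum was thus above its control and not below it. Transcripts of the 13 mitochondrially encoded protein genes summed to 25500 CPM in TPA-treated DKO, 45200 in TPA-treated SKO and 48100 in TPA-treated sgControl, and to 45130 in untreated U937 DKO, 52160 in SKO and 54230 in sgControl. In MOLM-13 SKO they summed to 76940 CPM against 56010. Of the myeloid genes tested, 7 of 7 were higher in U937 DKO, 7 higher and 2 lower of 10 in THP-1 DKO, 5 and 4 of 10 in TPA-treated DKO, 8 and 1 of 9 in MOLM-13 SKO, and 5 and 2 in OCI-AML-3 DKO. The shares of all genes given above for these groups stand beside those counts. In THP-1 the mitochondrial transcripts summed to 40220 CPM in DKO, 53720 in SKO and 51240 in sgControl, and in OCI-AML-3 to 60910 in DKO against 51050. Summed lymphoid, epithelial and stromal markers did not exceed 11.53, 18.05 and 4.128 CPM in any library.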

How the data were processed

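Gene counts were deposited as 2 tables. Per the header of the table of untreated U937 and THP-1 libraries, the authors counted reads with featureCounts 2.0.6 on GENCODE 38 genes without regard to strand, although the kit is directional per the labels' protocols. The submitters' processing notes name fastp 0.23.4, STAR 2.7.11b, Subread 2.0.6 and hg38. The header of the other table, which holds the TPA, MOLM-13 and OCI-AML-3 columns, gives no command. From the deposited counts, levels were computed as CPM scaled by TMM within each line. Tests were edgeR 4.0.16 quasi-likelihood fits (R 4.3.3, limma 3.58.1; filterByExpr, TMM) for each line and treatment, with joint fits for TPA and for the differences between U937 and THP-1. Calls needed a Benjamini-Hochberg adjusted p under 0.05 over all genes of the fit. The fits were tested on simulated counts. DESeq2 1.42.0 was an alternative. The members and lists were chosen with earlier results of these data known. Named members are, per comparison, up to 3 called highest and lowest, those on shifted chromosomes 7 and 10, and others named for their role after their values were seen. Same-numbered replicates had correlations of their deviations between -0.05 and 0.06, so numbers pair no libraries. Promoters came from the RefSeq table of GRCh38.p14, with no window used for MCM4, MCM5, GINS4, POLD3 and CCNE2. Figures used matplotlib 3.10.9.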

Additional observations from a re-analysis of the deposited data

Results flagged for a closer look

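Differences of effects that passed the test for named members are listed here with their standard error. The SKO effect in U937 differed with TPA (TPA minus untreated) for POLD1 (0.55 ± 0.062), RFC3 (0.37 ± 0.072), RRM2 (-0.61 ± 0.057) and CCNE2 (-0.54 ± 0.113). The DKO effect differed with TPA for E2F1 (-1.50 ± 0.102) and PRIM1 (-1.44 ± 0.185). Treatment and deposited table cannot be told apart in these 6.

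Between lines (U937 minus THP-1), the SKO effect differed for MCM10 (0.92 ± 0.081), MCM3 (0.57 ± 0.048), RFC3 (-0.71 ± 0.073) and ORC6 (-0.71 ± 0.085). Chromosome 10, which holds MCM10, had a median SKO difference of 0.92 relative to the median expressed gene. MCM3 sat among genes that were higher in U937 SKO and lay below their median, as given above. The DKO effect differed for MCM10 (1.17 ± 0.086), MCM3 (0.97 ± 0.048), ORC6 (-0.83 ± 0.087), RFC2 (-0.56 ± 0.072) and MCM7 (-0.44 ± 0.053). Relative to the same difference among neighbouring genes, the DKO values were 0.03 for MCM10, 0.12 for MCM3, -1.10 for ORC6, -0.10 for RFC2 and -0.08 for MCM7, so that ORC6 lay furthest of these 5 from its neighbours.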

How the results depend on the processing

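The alternatives were DESeq2's size factors, DESeq2's test, no filter on low counts and fits of the compared groups alone. Scaling without chromosomes 7, 10 and X, a replicate block and leaving out each library were also run. A lane-code term for U937 was chosen after seeing the data. Single fold changes were followed only for members called highest or lowest and those on shifted chromosomes 7 and 10. None of these changed direction. Members named for their role were not followed singly. Counts of members called stayed within 1.5 times in 232 of 233 alternative values. The exception was the SKO effect with TPA minus untreated, whose count was 13 and ran between 7 and 13 over fits leaving out 1 library, with 7 without U937 sgControl replicate 3; the cause was not tested. With the replicate block, 22 members were called in TPA-treated SKO in place of 23 and 12 for the SKO effect with TPA minus untreated in place of 13, with 23 in U937 SKO and 37 in U937 DKO; no other count of members changed. Of the fold changes followed singly, 932 alternative values kept their side of the threshold and 16 lost it, all in PRIM2, E2F1, TK1 and CCNE2 as given with them. Groups of 2 or 3 libraries limit the precision of every spread.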
